A study of Mus musculus with 8 samples.

Results

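The Wnt pathway was followed through 48 genes in mouse embryonic stem (ES) cells: 12 Wnt ligands, 9 Frizzled receptors, and the co-receptors, intracellular transducers, nuclear factors, feedback targets and antagonists around them. The genes were taken from a list of symbols, and all 48 of the 48 listed symbols were found among the 23284 gene entries of the table. The rule uses no measured value, but the symbols were listed with earlier results of these data known. A few genes differed clearly between the cell lines measured here: Wnt3, Wnt8a, Fzd10, Axin2 and Sp5 were higher, and Sfrp1 lower, in the line with a transgene than in the line without it.

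RNA sequencing was made of 2 mouse ES cell lines, each of them a single clone. Clone 6 carries a Ctcfl transgene that doxycycline induces, and clone 7 carries none. Ctcfl (BORIS) is a testis-expressed relative of the DNA-binding insulator protein Ctcf. The 4 groups were clone 6 with 2 µg/ml doxycycline, clone 6 without doxycycline, clone 7 with 2 µg/ml doxycycline and clone 7 without doxycycline, all kept for 48 h on dishes without the embryonic fibroblast feeder cells on which the lines were grown before. Per the labels the strain is mixed, and no allele beyond the transgene is named there. Each group had 2 libraries, 1 from each of 2 experiments, which the labels call biological replicates. The authors deposited 1 value per gene and group, in FPKM (fragments counted on a gene, divided by its transcript length and by the library's mapped fragments), so the levels here are the authors' group values and carry no SD, and the depth of each library is unknown. Because each line is 1 clone, a difference between the lines cannot be told apart into transgene, clone and culture history.

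Ctcfl was at 0.995 FPKM in clone 6 with doxycycline, 0.403 FPKM in clone 6 without it, 0.498 FPKM in clone 7 with doxycycline and 0.513 FPKM in clone 7 without it. Its difference with doxycycline in clone 6 was not called in the authors' deposited table (log2 1.30, p = 0.0062, q = 0.296). How much of the Ctcfl transcript the transgene carries was not known here. The 8 ES cell markers summed to between 3714 and 4049 FPKM in the 4 groups, and none was under 1 FPKM in all groups. Among them Nanog and Zfp42 were called higher, and Sox2 lower, in clone 6 than in clone 7, both with and without doxycycline. The 6 endoderm markers summed to at most 4.11 FPKM in any group.

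Wnt proteins are lipid-modified ligands that bind a Frizzled receptor together with the co-receptor Lrp5 or Lrp6. In their absence a destruction complex of Axin, Apc and Gsk3 marks β-catenin (Ctnnb1) for breakdown. Receptor engagement, passed on by Dishevelled proteins, stops this, and β-catenin then joins TCF/LEF factors on target genes, several of which (Axin2, Sp5, Nkd1, Notum) restrain the pathway in turn. In ES cells the pathway supports self-renewal, in part by relieving repression by Tcf7l1, and in the embryo Wnt3 is needed to form the primitive streak.

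**Figure D1:**
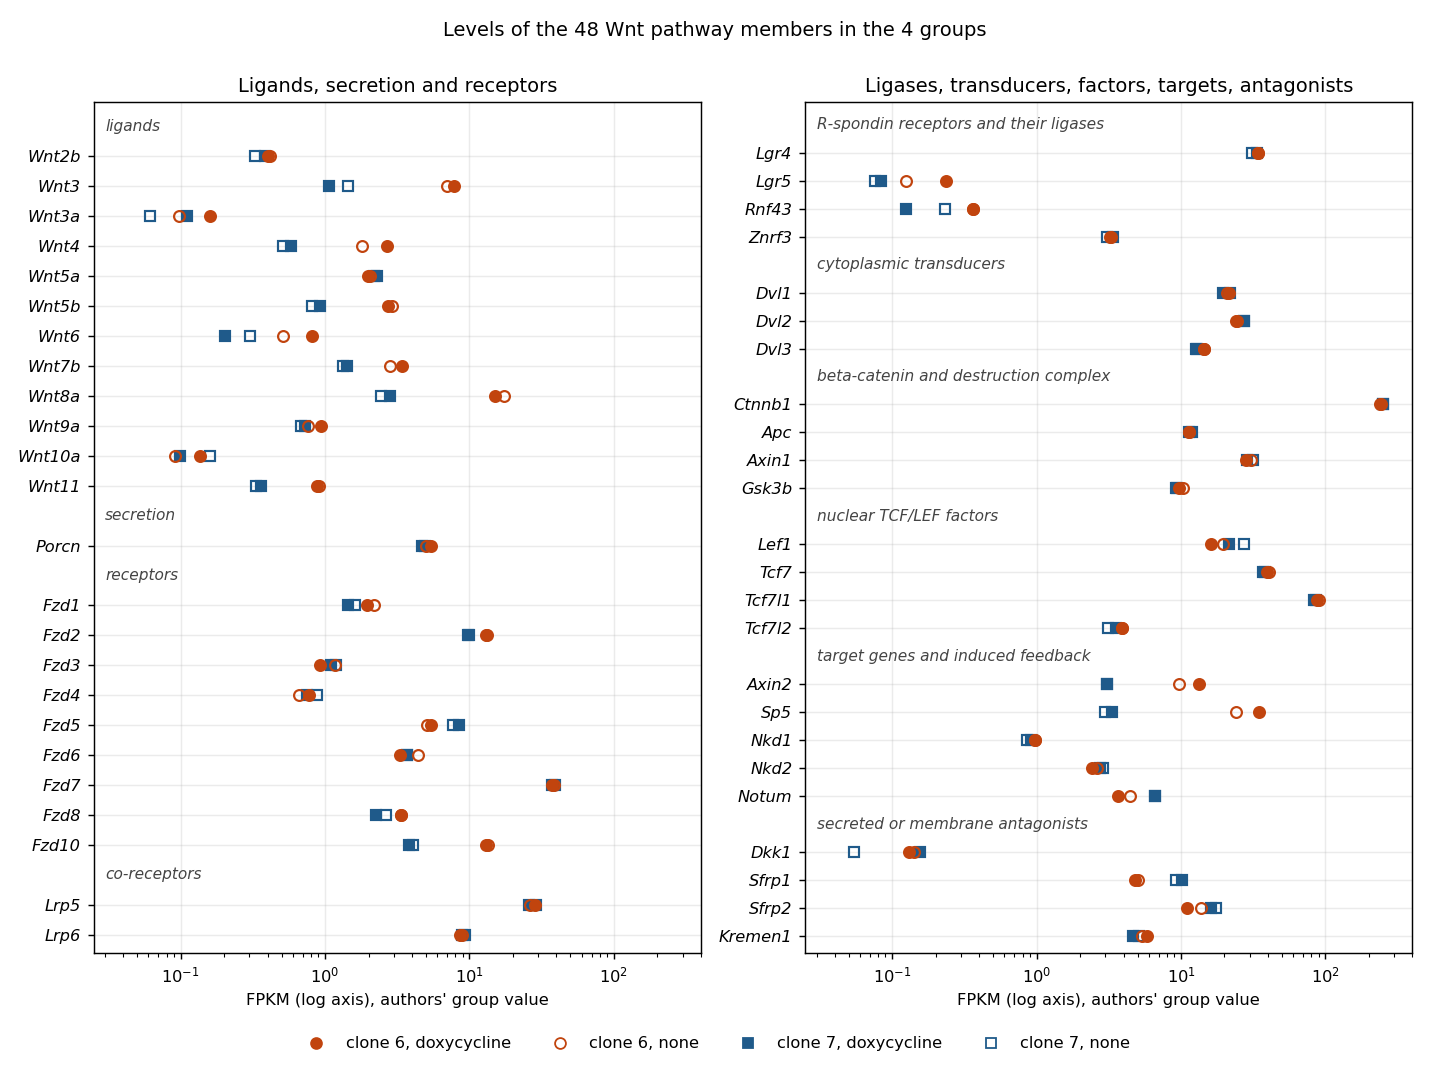
FPKM (log axis) of each of the 48 members in the 4 groups, by role; circles are clone 6 and squares clone 7, filled with doxycycline and open without, and each symbol is the authors' value for 2 libraries. Wnt3, Wnt8a, Fzd10, Axin2 and Sp5 lie apart by line with clone 6 higher, Sfrp1 with clone 7 higher, and Ctnnb1 is the most abundant member, between 240 and 252 FPKM.

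Levels spread widely among the members. The median member was at 5.09 FPKM in clone 6 with doxycycline, 5.02 FPKM in clone 6 without it, 3.45 FPKM in clone 7 with doxycycline and 3.10 FPKM in clone 7 without it. Between 35 and 37 of the 48 members reached 1 FPKM in a group. Of the 48 members, 7 were tested in none of the 4 comparisons: Wnt2b, Wnt3a, Wnt6, Wnt10a, Dkk1, Lgr5 and Rnf43. Their highest value in any group was 0.816 FPKM, for Wnt6 in clone 6 with doxycycline. By role, 6 of 12 ligands and 8 of 9 receptors had a mean of at least 1 FPKM over the groups.

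A gene was called where the authors tested it and the deposited q-value was under 0.05. Between clone 6 and clone 7 with doxycycline, 6 of 41 tested members were called in the authors' deposited table (14.6%), 5 higher and 1 lower in clone 6. Over all 13064 genes tested there, 1.52% were called, 0.857% higher and 0.666% lower. Without doxycycline, 6 of 41 tested members were called (14.6%), again 5 higher and 1 lower, where 1.37% of 13047 genes were called, 0.797% higher and 0.575% lower. These were the same 6 members in both comparisons. The 2 comparisons share no library but share both clones. Of the 41 members, 35 (85.4%) lay on the same side of 0 in both, as did 9379 of 12835 genes tested in both (73.1%). The median difference over the 37 members with a mean of at least 1 FPKM was small, 0.057 with and 0.052 without doxycycline on the log2(FPKM + 1) scale, beside −0.019 and −0.0014 over 12156 genes. Members lay on both sides of 0, 21 above and 16 below with doxycycline and 22 above and 15 below without it, so the median says little about single members.

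Of the 8 tested ligands 2 were called in each comparison between the lines, both higher in clone 6. Wnt8a, a ligand of the posterior epiblast of the early embryo, was at 15.1 FPKM in clone 6 with doxycycline and 17.3 FPKM in clone 6 without it, against 2.80 FPKM in clone 7 with doxycycline and 2.45 FPKM in clone 7 without it. Both clone 6 group values were above both clone 7 group values, which adds little to the calls and shows no spread between libraries. In the authors' deposited table the difference was called with doxycycline (5.38-fold, log2 2.43 ± 0.46 SE, q = 0.00812) and without it (7.07-fold, log2 2.82 ± 0.43 SE, q = 0.00812). The gene lies on chromosome 18 from 34542328 to 34548061 (mm10, plus strand). The q of 0.00812 is the smallest that the table holds, so calls that share it cannot be ranked among themselves.

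Wnt3, the ligand required for the primitive streak, was at 7.87 FPKM in clone 6 with doxycycline and 7.02 FPKM in clone 6 without it, against 1.07 FPKM in clone 7 with doxycycline and 1.44 FPKM in clone 7 without it. Again both clone 6 group values were above both clone 7 group values. The authors' deposited table called it 7.36-fold higher in clone 6 with doxycycline (log2 2.88 ± 0.56 SE, q = 0.00812) and 4.89-fold higher without it (log2 2.29 ± 0.49 SE, q = 0.00812). Wnt3 lies on chromosome 11 from 103774175 to 103818021 (plus strand).

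A further 3 ligands had an unadjusted p under 0.05 in both comparisons between the lines and were not called. Wnt4, a ligand of kidney and gonad development, was at 2.66 and 1.80 FPKM in clone 6 with and without doxycycline, against 0.578 and 0.508 FPKM in clone 7. The authors' deposited table gives it 4.61-fold with doxycycline (log2 2.21 ± 0.60 SE, p = 0.00055, q = 0.0540) and 3.55-fold without it (log2 1.83 ± 0.60 SE, p = 0.0014, q = 0.107). Adjusted within the comparison with doxycycline alone by Benjamini-Hochberg, Wnt4 would be called (0.0354). Wnt7b, a ligand of lung and placenta development, was at 3.43 and 2.80 FPKM in clone 6 with and without doxycycline, against 1.42 and 1.34 FPKM in clone 7 (q = 0.286 and 0.487 in the authors' deposited table). Wnt11, which acts mostly outside the β-catenin branch, was at 0.884 and 0.912 FPKM in clone 6 with and without doxycycline, against 0.362 and 0.331 FPKM in clone 7 (p = 0.0433 and 0.0212 in the authors' deposited table).

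Wnt5b, Wnt5a and Wnt9a were the other tested ligands. Wnt5b was at 2.73 and 2.92 FPKM in clone 6 with and without doxycycline, against 0.916 and 0.816 FPKM in clone 7. Its ratio of 2.98-fold with and 3.58-fold without doxycycline was as large as that of called genes, but its standard errors were the widest of all tested members (1.59 and 1.65 on the log2 scale), and it was not called. Wnt5a, the main ligand of the branch independent of β-catenin, was at 2.00 and 2.06 FPKM in clone 6 and at 2.28 and 2.17 FPKM in clone 7, with and without doxycycline. Wnt9a was under 1 FPKM in all 4 groups.

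Since FPKM is scaled to transcript length, the family can be summed. The 19 Wnt genes of the table, 12 members and 7 others, summed to 38.4 FPKM in clone 6 with doxycycline and 37.5 FPKM in clone 6 without it, against 11.5 FPKM in clone 7 with doxycycline and 11.4 FPKM in clone 7 without it. Wnt3 and Wnt8a made up 59.8% and 65.0% of this sum in clone 6 with and without doxycycline, against 33.5% and 34.0% in clone 7. The 17 other Wnt genes together came to 15.4 and 13.1 FPKM in clone 6, against 7.68 and 7.55 FPKM in clone 7. The larger ligand sum of clone 6 was thus mostly but not wholly made of these 2 called genes.

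**Figure D2:**
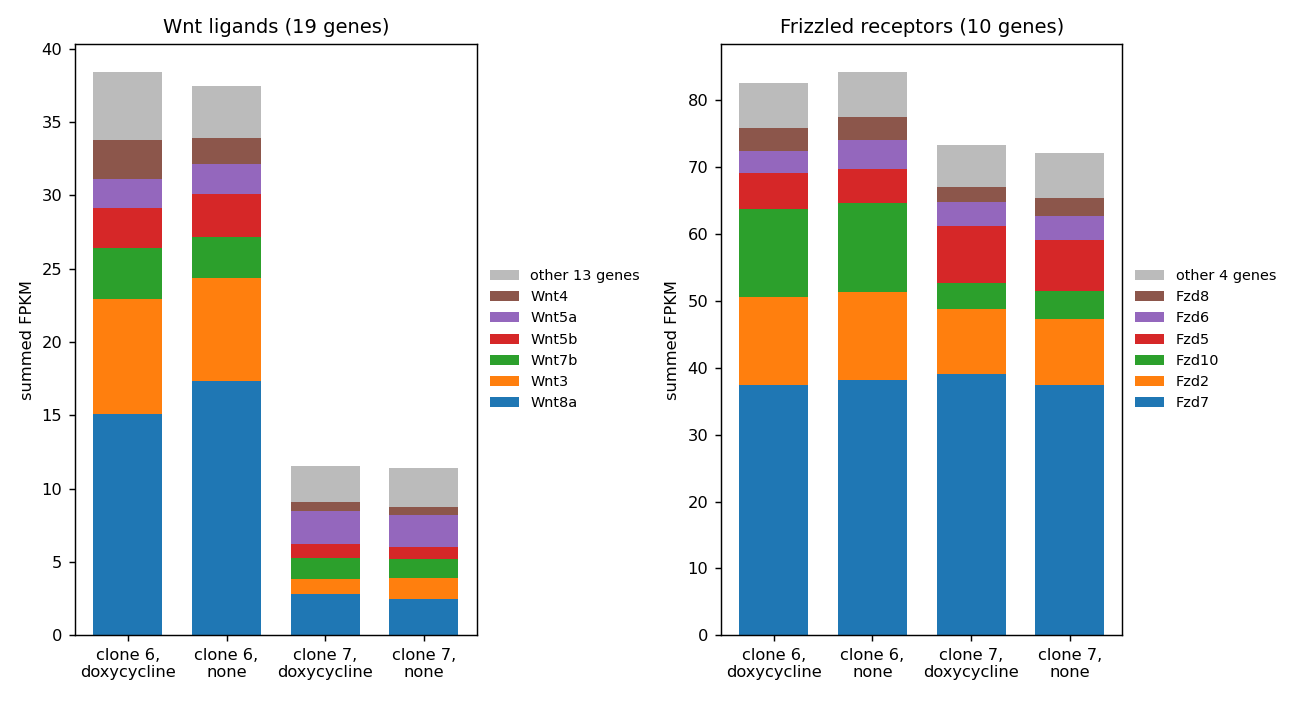
Summed FPKM of the 19 Wnt ligands (left) and the 10 Frizzled receptors (right) in the 4 groups, with the largest contributors as coloured segments and the rest in grey. The ligand bars reach 38.4 and 37.5 FPKM in clone 6 against 11.5 and 11.4 FPKM in clone 7, while the receptor bars lie between 72.1 and 84.1 FPKM in all 4 groups.

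Porcn, the acyltransferase that attaches the lipid to Wnt proteins before secretion, was at 5.42 and 5.01 FPKM in clone 6 with and without doxycycline and at 4.70 and 4.93 FPKM in clone 7, and was not called.

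Among the receptors, Fzd10 was the only member called in either comparison between the lines. It was at 13.03 FPKM in clone 6 with doxycycline and 13.3 FPKM in clone 6 without it, against 3.80 FPKM in clone 7 with doxycycline and 4.07 FPKM in clone 7 without it. The authors' deposited table called it with doxycycline (3.43-fold, log2 1.78 ± 0.40 SE, q = 0.00812) and without it (3.28-fold, log2 1.71 ± 0.36 SE, q = 0.00812). The gene lies on chromosome 5 from 128601106 to 128604093 (plus strand). Fzd5 stood the other way, at 5.41 and 5.04 FPKM in clone 6 with and without doxycycline, against 8.52 and 7.63 FPKM in clone 7. The authors' deposited table did not call it (log2 −0.66 ± 0.33 SE, p = 0.0046, q = 0.242 with doxycycline, and log2 −0.60 ± 0.36 SE, p = 0.0068, q = 0.314 without). An annotated transcript on the opposite strand covers 17.8% of its exon bases, and whether reads were counted by strand was not known here.

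Fzd7 was the most abundant Frizzled in every group, at 37.4 and 38.2 FPKM in clone 6 with and without doxycycline and at 39.0 and 37.5 FPKM in clone 7. Fzd2 came next in every group except clone 6 without doxycycline, where Fzd10 stood just above it. Fzd2 was at 13.2 and 13.1 FPKM in clone 6 and 9.79 and 9.86 FPKM in clone 7, a difference that was not called. Fzd6 was between 3.33 and 4.38 FPKM, and Fzd1, Fzd3, Fzd4 and Fzd8 were between 0.663 and 3.38 FPKM over the 4 groups. The 10 Frizzled genes of the table summed to 82.5 and 84.1 FPKM in clone 6 with and without doxycycline, against 73.2 and 72.1 FPKM in clone 7. Without Fzd10 the sums were 69.5 and 70.8 FPKM in clone 6 and 69.4 and 68.0 FPKM in clone 7. Fzd10 made up 15.8% and 15.9% of the receptor sum in clone 6 and 5.19% and 5.64% in clone 7.

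From the co-receptors to the TCF/LEF factors no tested member was called in any of the 4 comparisons. At the share of all genes called, 1.52% and 1.37% between the lines with and without doxycycline, a group of this size would also be likely to hold no call, so the count sets it apart from nothing. This group, with Porcn and the R-spondin receptors and ligases, holds 18 members, of which 16 were tested. Their log2 differences between clone 6 and clone 7 ran from −0.42 (Lef1) to 0.21 (Porcn) with doxycycline and from −0.48 (Lef1) to 0.32 (Tcf7l2) without it. Standard errors were between 0.21 and 0.52 with and between 0.19 and 0.54 without doxycycline, so small differences in these genes were not detectable.

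The co-receptor Lrp5 was at 28.3 and 26.4 FPKM in clone 6 with and without doxycycline and at 25.9 and 28.8 FPKM in clone 7, and Lrp6 was between 8.58 and 9.26 FPKM in the 4 groups. Lgr4, the receptor for R-spondins, which raise Wnt sensitivity, was between 31.0 and 34.2 FPKM. Znrf3, the membrane ligase that removes Frizzled receptors and that R-spondins inhibit, was between 3.07 and 3.37 FPKM, and its relative Rnf43 did not exceed 0.365 FPKM. The Dishevelled genes Dvl1, Dvl2 and Dvl3, which link receptor and destruction complex, were between 12.6 and 27.5 FPKM in all groups. The exons of Dvl2 share 18.3% of their bases with Acadvl on the opposite strand. None of these was called between clone 6 and clone 7.

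Ctnnb1, the gene of β-catenin, was the most abundant member at 240 and 244 FPKM in clone 6 with and without doxycycline and 252 and 250 FPKM in clone 7. Its exons share 14.6% of their bases with Ulk4 on the opposite strand. Axin1, the constitutive scaffold of the destruction complex, was between 28.2 and 31.4 FPKM, Apc between 11.3 and 11.9 FPKM and the kinase gene Gsk3b between 9.22 and 10.3 FPKM. RNA levels carry no measure of β-catenin protein, which this complex controls.

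Tcf7l1, the TCF factor that acts mainly as a repressor in ES cells, led the nuclear factors at 86.8 and 90.1 FPKM in clone 6 with and without doxycycline and 83.4 and 86.0 FPKM in clone 7. Tcf7 was between 37.1 and 40.7 FPKM and Tcf7l2 between 3.14 and 3.91 FPKM. Lef1, which activates targets with β-catenin and is itself a target in many tissues, was at 16.01 and 19.4 FPKM in clone 6 with and without doxycycline, against 21.4 and 27.1 FPKM in clone 7. The authors' deposited table did not call it (log2 −0.42 ± 0.26 SE, p = 0.103 with doxycycline, and log2 −0.48 ± 0.23 SE, p = 0.03555, q = 0.815 without). An antisense transcript covers 13.7% of its exon bases.

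The induced feedback genes fell into those that differed strongly and those that did not. Sp5, a zinc-finger factor and direct target of β-catenin, was at 34.4 FPKM in clone 6 with doxycycline and 24.0 FPKM in clone 6 without it, against 3.34 FPKM in clone 7 with doxycycline and 2.99 FPKM in clone 7 without it. This was the largest difference between the lines among the tested members, both with and without doxycycline. The authors' deposited table called Sp5 10.3-fold higher in clone 6 with doxycycline (log2 3.37 ± 0.36 SE, q = 0.00812) and 8.03-fold higher without it (log2 3.01 ± 0.35 SE, q = 0.00812). Sp5 lies on chromosome 2 from 70474923 to 70477726 (plus strand).

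Axin2, the scaffold protein that the pathway induces as its own brake, was at 13.3 FPKM in clone 6 with doxycycline and 9.70 FPKM in clone 6 without it, against 3.07 FPKM in clone 7 with doxycycline and 3.07 FPKM in clone 7 without it. Here too both clone 6 group values were above both clone 7 group values. In the authors' deposited table it was 4.35-fold higher with doxycycline (log2 2.12 ± 0.37 SE, q = 0.00812) and 3.16-fold higher without it (log2 1.66 ± 0.35 SE, q = 0.00812). Axin2 lies on chromosome 11 from 108920349 to 108950781 (plus strand), and an antisense transcript covers 3.80% of its exon bases.

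The other feedback members did not share this pattern. Nkd1, an inhibitor that binds Dishevelled, was between 0.862 and 0.973 FPKM in the 4 groups, and Nkd2 was at 2.41 and 2.63 FPKM in clone 6 with and without doxycycline and 2.75 and 2.87 FPKM in clone 7. Notum, a secreted enzyme that strips the lipid from Wnt proteins, was at 3.65 and 4.44 FPKM in clone 6, against 6.65 and 6.66 FPKM in clone 7. It was not called in the authors' deposited table (log2 −0.87 ± 0.33 SE, p = 0.02975, q = 0.737 with doxycycline, and p = 0.113 without). Antisense transcripts cover much of its exons, with Notumos alone on 29.4% of the bases.

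Promoter sequence is shown for the called members Sp5, Axin2, Wnt3 and Fzd10, as the 250 bases before the annotated start, 5′ to 3′ on the gene's strand (RefSeq, GRCm38.p6). Capitals in the Sp5 line mark the TCF/LEF core CTTTGA or CTTTGT on either strand (ACAAAG is CTTTGT on the other strand), and capitals in the Axin2 line mark a match to the core of the Ctcf motif, taken as CCA, AG and GGC with a pair of free bases between each. The regions are chr2:70474673-70474922 for Sp5, chr11:108920099-108920348 for Axin2, chr11:103773925-103774174 for Wnt3 and chr5:128600856-128601105 for Fzd10, all on the plus strand.
Sp5: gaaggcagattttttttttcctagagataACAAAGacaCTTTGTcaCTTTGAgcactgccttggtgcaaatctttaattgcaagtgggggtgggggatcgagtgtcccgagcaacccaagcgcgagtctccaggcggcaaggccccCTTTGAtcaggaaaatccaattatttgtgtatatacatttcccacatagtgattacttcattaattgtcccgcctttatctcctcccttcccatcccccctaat
Axin2: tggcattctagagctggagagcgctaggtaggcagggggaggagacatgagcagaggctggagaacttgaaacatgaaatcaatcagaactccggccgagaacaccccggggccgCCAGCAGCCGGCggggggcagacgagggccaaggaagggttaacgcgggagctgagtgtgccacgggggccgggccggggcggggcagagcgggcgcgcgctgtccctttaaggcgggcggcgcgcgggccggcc
Wnt3: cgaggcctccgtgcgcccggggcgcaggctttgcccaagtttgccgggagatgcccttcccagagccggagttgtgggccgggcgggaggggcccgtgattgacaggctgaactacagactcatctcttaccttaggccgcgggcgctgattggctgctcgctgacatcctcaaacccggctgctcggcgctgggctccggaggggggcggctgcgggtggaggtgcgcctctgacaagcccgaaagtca
Fzd10: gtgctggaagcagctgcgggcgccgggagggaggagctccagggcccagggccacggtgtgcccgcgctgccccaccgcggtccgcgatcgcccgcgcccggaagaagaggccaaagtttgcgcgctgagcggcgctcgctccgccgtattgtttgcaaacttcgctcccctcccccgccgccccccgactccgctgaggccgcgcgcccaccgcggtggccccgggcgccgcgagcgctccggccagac
The Sp5 promoter held 4 TCF/LEF cores, 2 of CTTTGA and 2 of CTTTGT, with no overlap among them. Of 32851 promoters of the same length, 27.6% held at least 1 such core (CTTTGA in 13.8%, CTTTGT in 16.5%) and 31 held 4 or more (0.0944%). The limit of 4 equals the count of Sp5 itself, the highest of the members, so this share is no test of Sp5. Axin2, Wnt3 and Fzd10 had no core in this window. The Ctcf core, searched on both strands, was found in 2.07% of all promoters and in 1 of 40 member promoters, that of Axin2. This count is near the share of all promoters, so it does not set the members or Axin2 apart. Over the members, 10 of 40 promoters (25.0%) held a TCF/LEF core. Dkk1, which was not tested, and a start of Lef1, which was not called, held 3 each. Member promoters are richer in G and C than promoters in general (median 66.4% against 52.4%), while the Sp5 promoter is poorer, at 46%. The shares are not corrected for this. A match describes the letters alone.

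The secreted and membrane antagonists held the only member called lower in clone 6. Sfrp1, a secreted protein with a Frizzled-like domain that binds Wnt ligands, was at 4.77 FPKM in clone 6 with doxycycline and 5.04 FPKM in clone 6 without it, against 10.1 FPKM in clone 7 with doxycycline and 9.22 FPKM in clone 7 without it. The authors' deposited table called it 2.13-fold lower in clone 6 with doxycycline (log2 −1.09 ± 0.37 SE, q = 0.00812) and 1.83-fold lower without it (log2 −0.87 ± 0.35 SE, p = 0.0005, q = 0.04995). The second q lies just inside the threshold, and the call is lost at q under 0.01. Sfrp1 lies on chromosome 8 from 23411502 to 23449632 (plus strand).

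Its relative Sfrp2 stood the same way, at 11.01 and 13.8 FPKM in clone 6 with and without doxycycline, against 16.05 and 17.4 FPKM in clone 7. It was not called in the authors' deposited table (log2 −0.54 ± 0.36 SE, p = 0.043, q = 0.899 with doxycycline, and p = 0.164 without). An antisense transcript covers 16.1% of its exon bases. Kremen1, a receptor for the antagonist Dkk1, was at 5.78 and 5.34 FPKM in clone 6 and 4.65 and 5.11 FPKM in clone 7, and Dkk1 itself did not exceed 0.157 FPKM in any group.

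**Figure D3:**
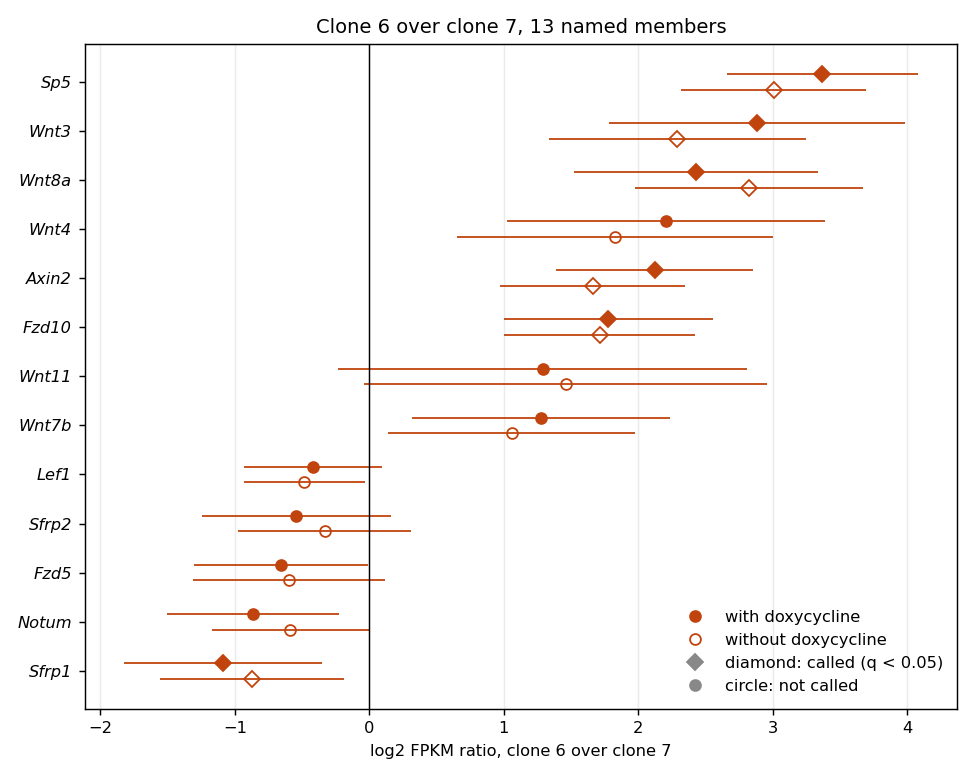
Log2 ratio of FPKM, clone 6 over clone 7, with doxycycline (filled) and without it (open), for the 13 members called or with an unadjusted p under 0.05 in any comparison; bars are 95% intervals from the standard errors and diamonds are calls at q under 0.05. Sp5, Wnt3, Wnt8a, Axin2 and Fzd10 lie right of 0 and Sfrp1 left of 0 in both comparisons; intervals and deposited q-values come from separate calculations.

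Members near the threshold complete the picture. With doxycycline the authors' deposited table gave 12 of 41 members an unadjusted p under 0.05 (29.3%), beside 7.90% of all tested genes, and without doxycycline 11 of 41 (26.8%), beside 6.59%. Of the 35 tested members called in neither comparison, 27 with and 29 without doxycycline lay within 0.5 of 0 on the log2 scale. The others ran from −0.87 (Notum) to 2.21 (Wnt4) with doxycycline and from −0.60 (Fzd5) to 1.84 (Wnt5b) without it.

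Beyond the members, 84 further pathway genes of the table were read. Between the lines with doxycycline 5 of 62 tested were called in the authors' deposited table (8.06%), 4 higher and 1 lower in clone 6. Without doxycycline 5 of 64 were called (7.81%), all higher. Over all tested genes 1.52% with and 1.37% without doxycycline were called. T (brachyury), a streak and mesoderm factor and Wnt target, was at 36.3 and 22.4 FPKM in clone 6 with and without doxycycline, against 2.02 and 1.67 FPKM in clone 7. Ror2, a tyrosine kinase receptor for Wnt5a, was at 15.9 and 16.6 FPKM in clone 6, against 5.06 and 5.78 FPKM in clone 7. Tnfrsf19, a receptor of the tumour necrosis factor family induced by Wnt signals, was at 6.70 and 6.59 FPKM in clone 6, against 1.86 and 2.03 FPKM in clone 7. Nanog, a pluripotency factor that Tcf7l1 represses, was at 128 and 97.6 FPKM in clone 6, against 68.5 and 57.9 FPKM in clone 7. The other genes listed as repressed by Tcf7l1 varied in direction. Esrrb was at 28.6 and 19.7 FPKM in clone 6, against 43.1 and 32.8 FPKM in clone 7 (p = 0.0064 and 0.0007, q = 0.302 and 0.0640 in the authors' deposited table, not called). Adjusted within the comparison without doxycycline alone by Benjamini-Hochberg, Esrrb would be called lower in clone 6. Over the 84 further genes this adjustment gave 7 calls without and 5 with doxycycline. Klf2 was at 26.6 and 21.3 FPKM in clone 6, against 39.6 and 34.4 FPKM in clone 7 (p = 0.0163 and 0.00235 in the authors' deposited table, not called). Tfcp2l1 was at 5.71 and 4.13 FPKM in clone 6 and 5.22 and 4.06 FPKM in clone 7. The median of these 4 genes was −0.22 with and −0.32 without doxycycline on the log2(FPKM + 1) scale. Ptk7, among the further receptors, was at 99.0 and 99.9 FPKM in clone 6, against 61.6 and 65.1 FPKM in clone 7. The authors' deposited table did not call it (q = 0.0871 with and 0.0572 without doxycycline). Adjusted within the comparison without doxycycline alone, Ptk7 would be called higher in clone 6. T, Ror2, Tnfrsf19 and Nanog were called higher in clone 6 both with and without doxycycline.

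The remaining calls stood in 1 comparison each. Sp8, the paralog of Sp5, was called higher in clone 6 without doxycycline (q = 0.0462 in the authors' deposited table), at 1.06 and 1.80 FPKM in clone 6 with and without doxycycline, against 0.558 and 0.528 FPKM in clone 7. Tle4, a co-repressor that TCF factors recruit, was called lower in clone 6 with doxycycline, at 25.4 and 33.2 FPKM in clone 6 with and without it, against 45.3 and 42.3 FPKM in clone 7. A change of this difference between the lines with doxycycline was not called for either gene by the normal test of the responses. Of the 13 other target genes in the table, 8 with and 11 without doxycycline had a higher level in clone 6 than in clone 7, and 10 were tested in each comparison. Over all 23284 gene entries, 8853 were higher and 9709 lower in clone 6 with doxycycline. Without it 9340 were higher and 9301 lower, and the rest had no direction. At a mean of at least 1 FPKM, 5 of 8 target genes with and 7 of 8 without doxycycline were higher in clone 6. Over all genes at that level the counts were 5585 and 5995 of 12156. Among the target genes T alone was called with doxycycline, and T and Sp8 without it. Cdx2 was at 1.84 and 1.42 FPKM in clone 6, against 0.430 and 0.514 FPKM in clone 7 (p = 0.0086 and 0.02025 in the authors' deposited table, not called). Myc was at 38.1 and 41.5 FPKM in clone 6 with and without doxycycline and 50.4 and 46.1 FPKM in clone 7, and Ccnd1 at 76.0 and 92.2 FPKM in clone 6 and 90.5 and 86.8 FPKM in clone 7, with neither called. Cdx1, at 1.06 and 0.553 FPKM in clone 6 against 0.0979 and 0.0961 FPKM in clone 7, was not tested.

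Markers of some other cells differed between the lines. The 9 primitive streak and mesoderm markers, T among them, summed to 120 and 113 FPKM in clone 6 with and without doxycycline, against 12.6 and 14.1 FPKM in clone 7. In each comparison 4 of the 9 were called higher in clone 6, where 0.857% of all tested genes with and 0.797% without doxycycline were. Fgf8 led this sum at 55.1 and 61.8 FPKM in clone 6, against 5.81 and 7.01 FPKM in clone 7. Of the 9, 2 were under 1 FPKM in all groups (Mesp1 and Tbx6), and Msgn1 was listed at 0 in clone 7. The 15 embryonic fibroblast (feeder) markers summed to 609 and 550 FPKM in clone 6, against 373 and 368 FPKM in clone 7, with none at 0. Tagln and Acta2 were the feeder markers called, both higher in clone 6 with doxycycline and Tagln alone without it. Of those not called, Col1a1 was at 140 and 132 FPKM in clone 6, against 86.8 and 92.8 FPKM in clone 7. Twist1 was at 8.12 and 7.79 FPKM in clone 6, against 5.72 and 5.56 FPKM in clone 7. Col1a2 and Thy1 were closer in both lines. Col1a2 was at 41.8 and 45.1 FPKM in clone 6 and 38.9 and 37.8 FPKM in clone 7, and Thy1 was at 25.3 and 25.7 FPKM in clone 6 and 26.9 and 25.9 FPKM in clone 7. The 4 neural markers summed to 71.5 and 74.9 FPKM in clone 6, against 82.9 and 89.1 FPKM in clone 7, and Pax6 among them was called lower in clone 6 with doxycycline. The 5 trophoblast markers summed to 23.2 and 17.4 FPKM in clone 6, against 12.1 and 11.7 FPKM in clone 7, with none called. The part of any of these cell types in the differences of the Wnt members was not tested. In these bulk samples a change in the number of such cells and a change in RNA per cell cannot be told apart.

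Doxycycline in clone 6 is the comparison meant to ask what inducing the transgene changes. Ctcfl itself was not called in it (q = 0.296 in the authors' deposited table), so the counts rest on no called rise of Ctcfl. With doxycycline in clone 6, 0 of 41 tested members were called in the authors' deposited table. Over all 13003 genes tested there, 0.108% were called, 0.0923% higher and 0.0154% lower. An unadjusted p under 0.05 was found for 2 members (4.88%), beside 1.08% of all tested genes, and Benjamini-Hochberg adjustment within this comparison also gave 0. In the authors' deposited table these were Sp5, at 34.4 FPKM with and 24.0 FPKM without doxycycline (1.43-fold, log2 0.52 ± 0.22 SE, p = 0.02075, q = 0.615), and Axin2, at 13.3 FPKM with and 9.70 FPKM without it (1.38-fold, log2 0.46 ± 0.28 SE, p = 0.04025, q = 0.869). Over the 41 members log2 differences ran from −0.40 (Fzd6) to 0.56 (Wnt4), with 19 above and 22 below 0. Wnt3 and Wnt8a, the ligands that separated the lines, differed by 0.16 ± 0.34 and −0.20 ± 0.28 (log2 ± SE), and Fzd10 by −0.03 ± 0.30. T, outside the list, was not called either (log2 0.70 ± 0.27 SE, p = 0.0021, q = 0.141 in the authors' deposited table), and 0 of 65 further pathway genes were called. Of these 65, 6 had an unadjusted p under 0.05 (9.23%). T, Esrrb, Nanog and Tfcp2l1 among them were higher with doxycycline, and Tle4 and Sp8 were lower. This comparison uses the same clone 6 libraries as the comparisons between the lines.

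With doxycycline in clone 7, which has no transgene, 0 of 39 tested members were called in the authors' deposited table, where 0 of 12908 genes were called (0%). None of the 39 had an unadjusted p under 0.05, nor did the adjustment within this comparison give a call. Over all genes 14 had such a p. The members' log2 differences ran from −0.43 (Wnt3) to 0.19 (Wnt8a), with 20 above and 19 below 0. Sp5 was at 3.34 FPKM with and 2.99 FPKM without doxycycline (log2 0.16 ± 0.45 SE), and Axin2 at 3.07 FPKM in both (log2 0.001 ± 0.43 SE). Of the further pathway genes 0 of 61 tested were called. In clone 7 the log2 differences of T, Esrrb, Nanog and Tfcp2l1 were 0.27, 0.40, 0.24 and 0.36. Those of Tle4 and Sp8 were 0.098 and 0.081.

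The responses of the clones to doxycycline were then compared directly. A two-sided normal test of the difference, clone 6 minus clone 7, with Benjamini-Hochberg adjustment called 0 of 39 members, and 0 of 39 had an unadjusted p under 0.05, where 18 of 12638 genes were called (0.142%). The same test asks whether the difference between the lines changes with doxycycline. For Sp5 the responses differed by 0.36 ± 0.50 (log2 ± SE), for Axin2 by 0.46 ± 0.51 and for T by 0.42 ± 0.69. These standard errors are wide beside the responses themselves, so a difference between the clones of this size was not detectable, and a like response in both was not shown either.

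**Figure D4:**
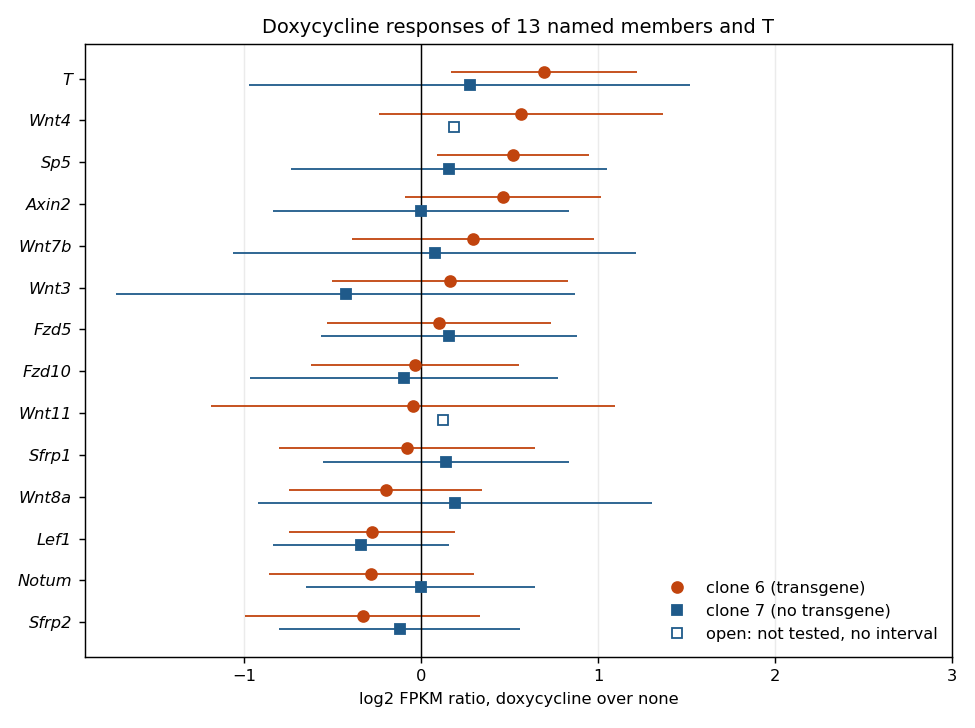
Log2 ratio of FPKM, doxycycline over none, in clone 6 (circles) and clone 7 (squares) for the same 13 members and T; bars are 95% intervals from the standard errors, and open squares had no test in clone 7. Sp5 and T in clone 6 have intervals above 0 but were not called, and the clone 7 intervals all span 0.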

How the data were processed

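RNA of 8 libraries, 2 in each of 4 groups, was sequenced as 75 bp single-end reads, per the labels' protocols. TopHat2 2.0.8, Cufflinks 2.1.1 and build mm10 are named, with no roles, per the submitters' processing notes. The annotation, the strand setting and the way libraries were normalized were not known here. The authors deposited a table of 23284 gene entries in 6 pairwise comparisons with 1 FPKM value per gene and group, so p-values rest on the authors' own model of the spread between libraries. The authors also deposited a test statistic, a score without bounds. The deposited p-value is at least 5e-05, and the deposited q-value was checked to equal Benjamini-Hochberg adjustment over the 78127 tests of all 6 comparisons, within 5.21e-07.

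Fold changes were computed from the FPKM values without a pseudocount, and standard errors as the log2 ratio over the deposited test statistic. The deposited p-values come from another calculation and can differ from the intervals these give. List medians use log2(FPKM + 1) and a mean of at least 1 FPKM. Responses to doxycycline were compared over 12638 genes with a normal test. Tested on simulated data of that comparison, it called 9 of 100 genes with a true log2 difference of 1. It called 53 of 100 with a difference of 2 and 4 of 12438 unchanged genes. The simulation took each gene's standard error as exact. These counts, the few false calls among them, therefore do not check the standard errors on the real data. Named were all members called or with an unadjusted p under 0.05, up to 3 others per role by level, the other pathway genes called, and T, Cdx1, Myc and Ccnd1. Markers of other cells named singly, Gsk3b, Cdx2, Esrrb, Klf2, Tfcp2l1 and Ptk7 were chosen after their values were seen. Nanog also stands in the ES cell list, and T in the streak list. The members and lists were chosen with earlier results of these data known. Promoters were matched by symbol, and 30 of 48 members had 1 or more. Exon overlaps come from a GENCODE annotation of the same build and are not given for every member. Annotated genes on the opposite strand also share 8.80% of the exon bases of Wnt11 and 6.61% of those of Wnt7b. The tools were Python 3.11.15, pandas 2.3.3, NumPy 2.4.6, SciPy 1.17.1 and matplotlib 3.10.9.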

Additional observations from a re-analysis of the deposited data

How the results depend on the processing

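The counts of called members held within 1.5 times under each alternative run. Without doxycycline 6 members were called in clone 6 against clone 7, and 5 at q under 0.01, where Sfrp1 was lost. With doxycycline 6 were called, and 7 with adjustment within the comparison, where Wnt4 was added. The comparisons of doxycycline gave 0 under every alternative, as did the difference between the responses, where a standard error taken from the deposited p called 0 of 12638 genes in all. The median over members on the log2(FPKM + 1) scale moved with the settings but stayed under 0.1. With against without doxycycline in clone 6 it was −0.0233, and became −0.000124 with no expression minimum. In clone 7 it was 0.000762, and became 0.00597 with no minimum and −0.0198 when centred on all genes. Between the lines with doxycycline it was 0.057, and became 0.030 at a minimum of 5 FPKM and 0.076 when centred. Between the lines without doxycycline it was 0.052, and became 0.061 with a pseudocount of 0.1, 0.068 with no minimum and 0.019 at a minimum of 5 FPKM. The cause was not tested. No paired analysis was possible because the table holds 1 value per group, and for the same reason no library could be left out. Library depth is unknown, and 7 members under 1 FPKM had no test.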
